A study of Mus musculus with 16 samples.

Results

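The genes described here were 10 markers of meningeal and perivascular fibroblasts, chosen by symbol from the count table with the collagens left out: Dcn, Lum, Ogn, Fmod, Islr, Igf2, Aldh1a2, Slc6a13, Slc6a20a and Slc22a6. They were 10 of the 55487 genes counted, each matched 1 row, and all 10 passed the filter on low counts. Bulk brain RNA came from 16 female mice on a C57/bl6 background, 4 in each of 4 groups. CETPtg mice carry human CETP, a plasma protein that moves cholesteryl esters between lipoproteins and that mice lack, under its own promoter. APPtg/CETPtg mice carry the same transgene together with mutant human APP driven by the Thy1 promoter. Every mouse was moved at week 11 of age to a diet with 1% cholesterol and received evacetrapib, a CETP inhibitor, at 30 mg/kg/day or its vehicle for 11 weeks. No group lacked the CETP transgene, so nothing here compares mice with and without it.

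The meninges are the membranes around the brain, and their fibroblasts also line the larger vessels that enter the tissue. These cells build a matrix of collagen fibrils decorated by small leucine-rich proteoglycans. They also secrete growth factors, and the layers next to the cerebrospinal fluid carry transporters that move amino acids, GABA and organic anions. Neurons and glia make most of the RNA of a whole brain, so these transcripts come from a small part of each sample. In bulk tissue, fewer fibroblasts and less RNA per fibroblast cannot be told apart. How much of the meninges was kept at dissection was not given in the sources used here.

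Gene counts summed to between 21391335 and 55453789 per mouse, and the lowest count of any of the 10 genes in any mouse was 28. Median sums were lower in APPtg/CETPtg mice, at 24992987 on vehicle and 23110676 on evacetrapib. In CETPtg mice they were 35195746 and 36574277. The part of this difference in depth in the results was not tested. Thy1, whose promoter drives the APP transgene, was at 684 to 807 CPM (counts scaled to 1000000 per library after TMM normalization) in the 8 CETPtg mice and at 865 to 2063 in the 8 APPtg/CETPtg mice, with no overlap. All 8 neuron and 8 astrocyte markers listed passed the filter. So did 3 of 5 skeletal muscle genes, so passing it does not check the tissue. The labels place evacetrapib and vehicle libraries in different rows of the index plate and the genotypes in different columns. Plate row and treatment, and plate column and genotype, therefore cannot be told apart. Mice are named below as the labels title them, S1 to S4 and A to D for CETPtg mice on vehicle and evacetrapib, and S5 to S8 and E to H for APPtg/CETPtg mice on vehicle and evacetrapib. Pituitary genes, among them Prl and Gh, summed to 853 CPM in 1 mouse, E, against a median of 1.81 over all mice. The part of this tissue in the results was not tested, and the group of E is given mouse by mouse below.

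The 10 genes lie on 7 chromosomes of GRCm38. Dcn (chr10:97479609-97518143) and Lum (chr10:97565128-97572703) are next to each other on the plus strand, followed by Kera and Epyc of the same gene family. Kera had no count in any mouse, and Epyc had at most 2 counts. Ogn (chr13:49608046-49624501) lies within Cenpp on the opposite strand, and Fmod (chr1:134037254-134048277) overlaps no other annotated gene. Igf2 (chr7:142650766-142666816, minus strand) overlaps the antisense gene Igf2os. Its imprinted neighbor H19 averaged 0.322 CPM, and Ins2 averaged 0.0272 CPM. Aldh1a2 is at chr9:71215789-71296243, Slc6a13 at chr6:121300227-121337733 beside Slc6a12, Slc6a20a at chr9:123634770-123678885 beside its paralog Slc6a20b, and Slc22a6 at chr19:8618039-8628299 beside Slc22a8. Islr (chr9:58156268-58204306, minus strand) shares 181 of its 2686 exon bases with Islr2, which was counted at 76.6 to 121 CPM. The strand setting of the counting was not given, so for Ogn, Igf2, Aldh1a2, Slc6a13, Slc6a20a and Islr, which have a gene on the other strand, reads of both strands may have been counted together.

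Start-site windows of 3 of the genes are shown because Slc6a20a and Fmod were among the most alike over the mice and Islr was among the least, as described below. RefSeq start sites of GRCm38.p6 were given for 8 of the 10 genes, and for Dcn and Lum no window was printed. Each window runs from 250 bases before to 50 bases after the start, 5′ to 3′ on the strand of the gene, and a GC box (GGGCGG, either strand) is in capitals. The windows are chr9:123678783-123679082 (minus strand) for Slc6a20a, chr1:134037004-134037303 (plus strand) for Fmod and chr9:58158505-58158804 (minus strand) for Islr.
Slc6a20a: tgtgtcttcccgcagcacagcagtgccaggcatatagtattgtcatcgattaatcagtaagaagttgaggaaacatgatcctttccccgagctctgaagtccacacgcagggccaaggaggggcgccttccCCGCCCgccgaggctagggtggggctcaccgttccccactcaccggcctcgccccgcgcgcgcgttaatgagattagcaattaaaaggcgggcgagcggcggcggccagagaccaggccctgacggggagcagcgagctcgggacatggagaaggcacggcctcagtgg
Fmod: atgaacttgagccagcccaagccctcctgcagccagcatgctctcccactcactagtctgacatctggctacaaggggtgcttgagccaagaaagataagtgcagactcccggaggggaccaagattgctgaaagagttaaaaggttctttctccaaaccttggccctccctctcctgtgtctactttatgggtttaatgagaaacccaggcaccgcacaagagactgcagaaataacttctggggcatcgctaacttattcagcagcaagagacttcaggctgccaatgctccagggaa
Islr: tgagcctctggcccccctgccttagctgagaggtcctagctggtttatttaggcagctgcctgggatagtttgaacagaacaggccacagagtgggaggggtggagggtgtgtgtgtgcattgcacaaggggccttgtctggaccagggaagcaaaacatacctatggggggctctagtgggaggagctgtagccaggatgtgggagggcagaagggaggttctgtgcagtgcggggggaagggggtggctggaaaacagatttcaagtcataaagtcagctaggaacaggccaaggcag
The windows differed in composition, with 25 CG pairs for Slc6a20a, 3 for Fmod and 1 for Islr. The GC box, which 35.7% of all 32851 windows of this length hold, was present in the window of Slc6a20a alone among these 3. A forkhead core (TAAACA), a nuclear receptor half-site (AGGTCA) and a TATA box (TATAAA), held by 13.4%, 16.3% and 13.6% of all windows, were in none of the 3 on either strand. Among the 13 windows of the 8 genes, the GC box was also found for Slc6a13 and Igf2, the half-site for Slc6a13 and Igf2, and the TATA box for Ogn, more than 200 bases before its start.

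Per kilobase of exon, the level of Islr was highest and that of Igf2 lowest. Islr, a membrane protein of mesenchymal cells with leucine-rich repeats, averaged 9.59 ± 2.88 CPM per kb (SD, n = 16). Fmod, a proteoglycan that binds collagen fibrils, followed at 5.36 ± 0.877 and was below Islr in all 16 mice. Slc6a20a, a proline transporter, averaged 3.85 ± 0.669 CPM per kb, and Slc6a13, a transporter of GABA and taurine, averaged 3.47 ± 0.590. Their order held in 13 of 16 mice. Aldh1a2, the enzyme that makes retinoic acid from retinaldehyde, averaged 2.98 ± 0.548 CPM per kb. Slc22a6, an organic anion transporter, averaged 2.06 ± 0.413 and Ogn, a further proteoglycan, 2.0 ± 0.418, and these levels were not separable, since Slc22a6 was the higher in 9 of 16 mice. Dcn, the proteoglycan decorin, averaged 1.43 ± 0.228 CPM per kb over an exon length of 5838 bases. Lum, the proteoglycan lumican, at 0.667 ± 0.0881, and Igf2, a growth factor, at 0.653 ± 0.171, were also not separable, with Lum the higher in 8 of 16 mice.

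The spread over mice differed between the genes. Over the 16 mice the coefficient of variation of CPM ran from 13.2% for Lum to 30.1% for Islr. Igf2 spanned the widest ratio, 3.86-fold from mouse S6 to mouse S3. The lowest value of 9 of the 10 genes was in an APPtg/CETPtg mouse on vehicle, S5 for Dcn, Slc6a13, Aldh1a2 and Islr and S6 for Igf2, Slc6a20a, Ogn, Slc22a6 and Fmod. Lum was lowest in mouse H.

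**Figure D1:**
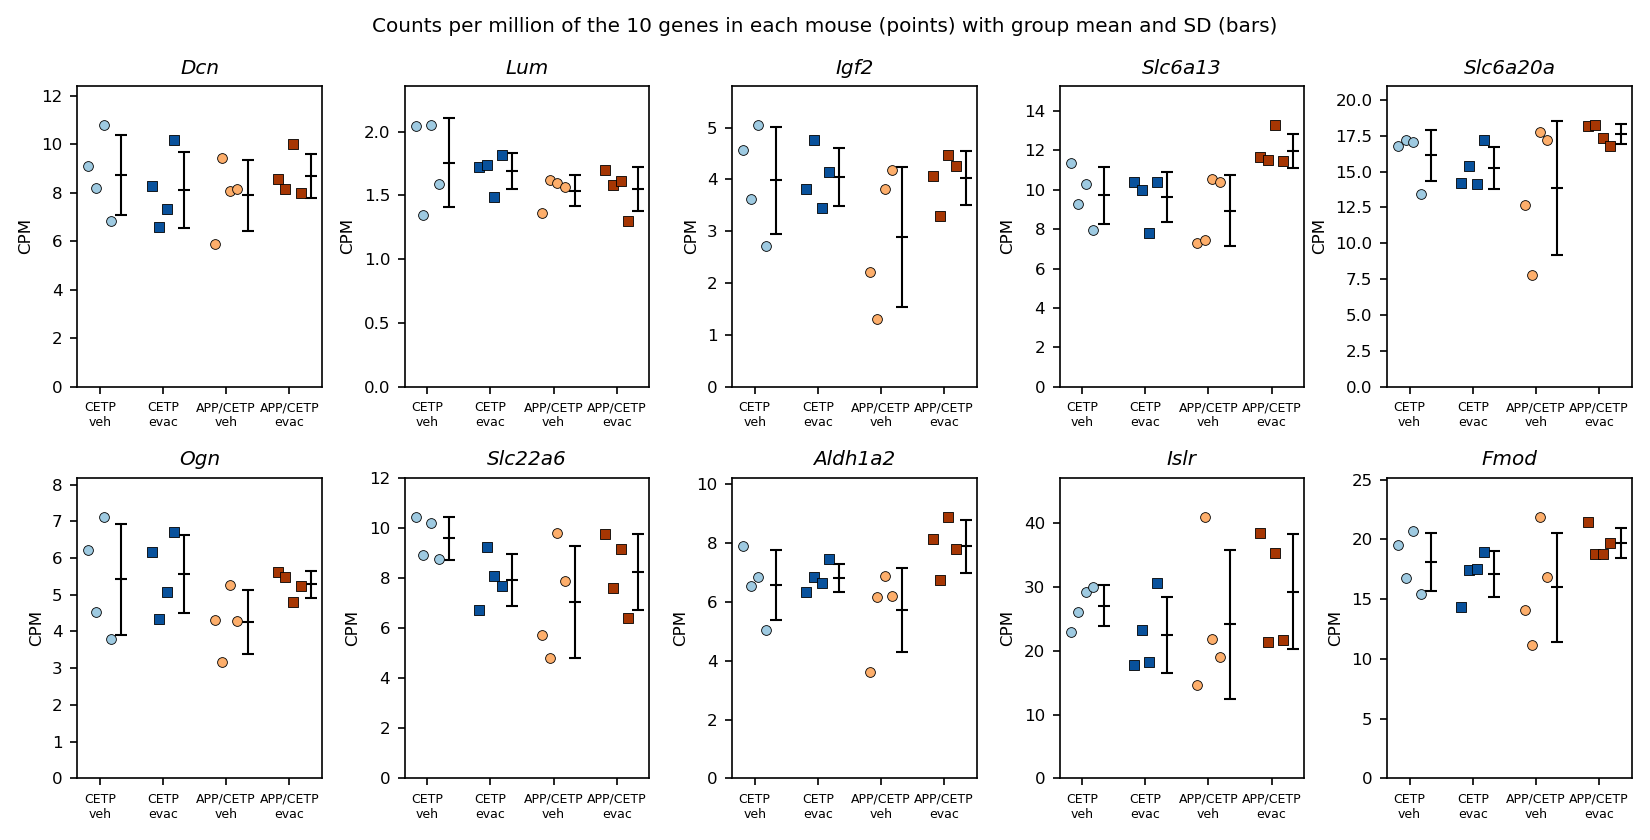
CPM (vertical axes, from 0) of the 10 genes in each of 16 mice, by genotype and treatment (veh, vehicle; evac, evacetrapib). Points are mice and bars are group means with SD (n = 4); S5 and S6, the first 2 points of the APPtg/CETPtg vehicle group, are low for Igf2, Slc6a20a, Slc6a13 and Slc22a6, and Slc6a13 alone separates groups that were compared.

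To ask whether evacetrapib changed these genes in either genotype, mice on the drug were set against mice on vehicle in both genotypes at once, in each genotype alone, and as a difference between the genotypes' effects. None of the 10 genes passed an adjusted p of 0.05 with the minimum fold change of 5% in any of these tests (edgeR quasi-likelihood test, Benjamini-Hochberg over 18609 genes). DESeq2 and limma-voom called none of the 10 either. At an unadjusted p below 0.05, edgeR had 0 of the 10 over both genotypes, 0 in CETPtg mice, 2 in APPtg/CETPtg mice and 1 for the difference, against 1472, 1079, 1677 and 1271 of all 18609 genes. By edgeR 0.0107% of all genes were called over both genotypes and 0.0430% in APPtg/CETPtg mice. DESeq2 called 57 of 15716 and 73 of 13555 genes with an adjusted p in these comparisons. In CETPtg mice 0% were called (0 genes by all 3 tools), and for the difference between the genotypes' effects 0% (0 genes by edgeR and limma-voom and 2 by DESeq2). With shares this small by each tool, 0 calls among 10 genes was no different from this background.

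The estimates nonetheless leaned one way in APPtg/CETPtg mice. There the log2 fold change of evacetrapib over vehicle was above 0 for 10 of 10 genes, against 49.6% of all genes tested, with a median of 0.30 against -0.00 for all genes. Lum was close to 0 at 0.01 and turned to -0.03 when mouse S5 was left out. In CETPtg mice 3 of the 10 were above 0, against 49.1% of all genes, with a median of -0.07. The difference between the genotypes' effects was above 0 for 10 of 10, against 49.7%, with a median of 0.41, although that of Lum was -0.01 without mouse S1 and -0.02 without mouse S3. These genes were chosen as markers of the same cells and measured in the same mice, and their directions are not independent. Without S5 and S6, a choice made after their values were seen, the median in APPtg/CETPtg mice was 0.07 and 8 of 10 were above 0, and the median difference between the genotypes' effects was 0.15 with 9 of 10 above 0.

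Slc6a13 had the smallest p of the 10 in APPtg/CETPtg mice. On vehicle its values were 7.30 CPM in S5, 7.44 in S6, 10.6 in S7 and 10.4 in S8. On evacetrapib they were 11.7 in E, 11.5 in F, 13.3 in G and 11.5 in H. All 4 treated mice were above all 4 vehicle mice, a separation that 4.29% of all genes showed in this comparison in either direction. Evacetrapib over vehicle gave a log2 fold change of 0.41 ± 0.13 (SE, 95% interval 0.13 to 0.69, edgeR adjusted p = 0.357, from an unadjusted p of 0.00688). In CETPtg mice the values ran from 7.96 to 11.3 CPM on vehicle and from 7.78 to 10.4 on evacetrapib, and the groups overlapped, as they did there for all 10 genes, where 3.92% of all genes separated. The log2 fold change in CETPtg mice was -0.01 ± 0.13. The difference between the genotypes' effects was 0.42 ± 0.19 (edgeR adjusted p = 0.709, from an unadjusted p of 0.0374), so it did not hold up over the genes tested. Without S5 and S6 the log2 fold change in APPtg/CETPtg mice was 0.19.

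The other transporters gave wider intervals. Slc6a20a was at 12.7 CPM in S5, 7.80 in S6, 17.8 in S7 and 17.2 in S8, and at 18.2 in E, 18.2 in F, 17.3 in G and 16.8 in H. The treated mice lay close together and within reach of S7 and S8, while S6 stood far below. Its log2 fold change was 0.33 ± 0.16 (95% interval -0.02 to 0.67, adjusted p = 0.585 by edgeR), and 0.02 without S5 and S6. Slc22a6 was at 5.72 CPM in S5, 4.82 in S6, 9.79 in S7 and 7.87 in S8 and at 6.40 to 9.74 in the evacetrapib-treated mice, so that the groups overlapped. Its log2 fold change of 0.21 ± 0.18 turned to -0.08 without S5 and S6. In CETPtg mice Slc22a6 had the lowest estimate of the 10 genes, at -0.28 ± 0.17 on the log2 scale (adjusted p = 0.850 by edgeR), from values of 8.78 to 10.4 CPM on vehicle and 6.71 to 9.23 on evacetrapib.

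Aldh1a2 had the largest estimate in APPtg/CETPtg mice. Its vehicle values were 3.63 CPM in S5, 6.17 in S6, 6.88 in S7 and 6.2 in S8, and its values on evacetrapib were 8.15 in E, 6.74 in F, 8.90 in G and 7.80 in H. Only F fell within the range of the vehicle mice. On the log2 scale the change was 0.45 ± 0.16 (95% interval 0.12 to 0.79, edgeR adjusted p = 0.39, from an unadjusted p of 0.0104). It was 0.30 without S5 and 0.28 without S5 and S6. In CETPtg mice it was 0.05 ± 0.15.

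Igf2, which signals through the IGF1 and insulin receptors, spanned the widest ratio of the 10 genes among APPtg/CETPtg mice on vehicle. It was at 2.22 CPM in S5, 1.31 in S6, 3.82 in S7 and 4.19 in S8, and at 4.08 in E, 3.29 in F, 4.47 in G and 4.27 in H. S5 and S6 were below every treated mouse and S7 and S8 were among them. This gave a log2 fold change of 0.42 ± 0.26 (95% interval -0.11 to 0.96, adjusted p = 0.663 by edgeR) and 0.00 without S5 and S6. In CETPtg mice it was 0.01 ± 0.24, and it fell below 0 there with library totals in place of TMM.

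Of the proteoglycans none had an interval that left out 0 with evacetrapib. Fmod was at 14.1 CPM in S5, 11.1 in S6, 21.9 in S7 and 16.9 in S8, and at 18.8 to 21.4 in the treated mice, within the vehicle range. Its log2 fold change in APPtg/CETPtg mice was 0.29 ± 0.15, and 0.04 without S5 and S6. Ogn gave 0.31 ± 0.19 there, from 3.15 to 5.28 CPM on vehicle and 4.79 to 5.62 on evacetrapib. Dcn, the proteoglycan with the second highest CPM of the 4, gave 0.13 ± 0.16 in APPtg/CETPtg mice and -0.11 ± 0.15 in CETPtg mice. Its 95% interval over both genotypes, -0.22 to 0.24, gives the size of change that these mice could not resolve. Lum, at 1.30 to 2.05 CPM over all mice, gave 0.01 ± 0.17 and -0.06 ± 0.15.

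Islr differed most from mouse to mouse. In APPtg/CETPtg mice it was at 14.7 CPM in S5, 41.1 in S6, 21.8 in S7 and 19.1 in S8, and at 38.6 in E, 21.4 in F, 35.4 in G and 21.7 in H. S6, the lowest of all mice for 5 of the other genes, was here the highest. Its log2 fold change of 0.29 ± 0.25 (adjusted p = 0.768 by edgeR) ran from 0.13 without S5 to 0.66 without S6. Markers of the olfactory bulb moved with it. All 5 genes of that list were detected and their sum was 14.6 CPM in S5, 162 in S6, 57.9 in S7 and 20.2 in S8, and 161 in E, 30.0 in F, 174 in G and 90.3 in H. Their part in the Islr values was not tested.

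**Figure D2:**
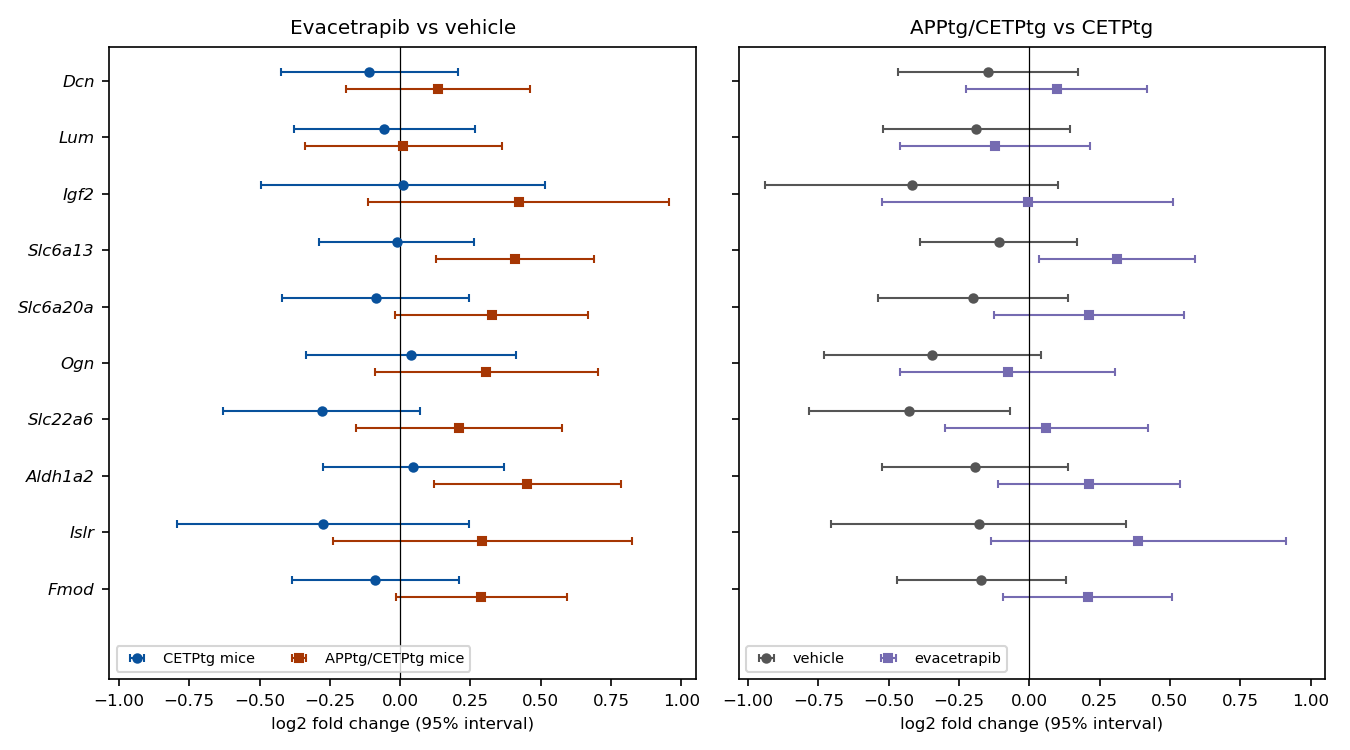
Log2 fold change (horizontal axis) of each gene with its 95% interval, for evacetrapib over vehicle within each genotype (left) and for APPtg/CETPtg over CETPtg mice within each treatment (right), from edgeR fits over 16 mice. In APPtg/CETPtg mice the evacetrapib estimates lie between 0.01 and 0.45, and the intervals of Slc6a13 and Aldh1a2 leave out 0 before adjustment.

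To ask whether the APP transgene changed these genes, the genotypes were compared over both treatments and within each. None of the 10 genes was called by edgeR, DESeq2 or limma-voom in any of these comparisons. Of all genes, edgeR called 17.7% over both treatments, 10.4% under vehicle and 2.99% under evacetrapib. Whether 0 of 10 genes differs from these shares was not tested. At an unadjusted p below 0.05, edgeR had 0, 1 and 1 of the 10 in these comparisons, against 5685, 4687 and 3585 of all 18609 genes. Over both treatments 5 of 10 estimates were above 0, with a median of -0.01 and a range from -0.21 to 0.10. The vehicle comparison uses the same S5 to S8 as the evacetrapib comparison in APPtg/CETPtg mice, and the values are therefore given side by side and not as a second result. Under vehicle the log2 fold change of APPtg/CETPtg over CETPtg was below 0 for 10 of 10 genes, where 49.7% of all genes were above 0, with a median of -0.19. Without S5 and S6 it was above 0 for 4 of 10, with a median of -0.06. Under evacetrapib 7 of 10 were above 0, against 52.3% of all genes, with a median of 0.15, and Igf2, at -0.01, changed sign with library totals and with limma-voom.

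Slc22a6 had the smallest p of the 10 under vehicle. The CETPtg mice were at 10.4 CPM in S1, 8.90 in S2, 10.2 in S3 and 8.78 in S4, against 4.82 to 9.79 in APPtg/CETPtg mice. Only S7 of the APPtg/CETPtg mice was within the CETPtg range. None of the 10 genes separated the genotypes under vehicle, where 17.0% of all genes did. The genotypes differed by a log2 fold change of -0.43 ± 0.17 (95% interval -0.78 to -0.07, edgeR adjusted p = 0.120, from an unadjusted p of 0.0216). Without S7 it was -0.62 with an adjusted p of 0.0248 by edgeR, and in no other setting run was it called. Slc22a8, the neighboring organic anion transporter, fell by 0.36 on the log2 scale under vehicle (SE 0.09, adjusted p = 0.0154 by edgeR).

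Slc6a13 was the single gene of the 10 that separated the genotypes under evacetrapib, where 10.8% of all genes did so. CETPtg mice were at 10.4 CPM in A, 9.98 in B, 7.78 in C and 10.4 in D, all below the 11.5 to 13.3 CPM of the APPtg/CETPtg mice. Here the log2 fold change was 0.31 ± 0.13 (95% interval 0.03 to 0.59, edgeR adjusted p = 0.201, from an unadjusted p of 0.0296). Under vehicle the genotypes overlapped and the log2 fold change was -0.11 ± 0.13. The separation under evacetrapib uses the same E to H as the comparison with vehicle in APPtg/CETPtg mice.

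Other markers chosen for the same cells were followed in lists. Of 25 other markers of meningeal and perivascular fibroblasts, all 25 were tested and none was called with evacetrapib. In APPtg/CETPtg mice 20 of 25 had a log2 fold change above 0, with a median of 0.25, and in CETPtg mice 8 of 25, with a median of -0.08, where the 10 genes had 0.30 and -0.07. Over both treatments 3 of the 25 fell in APPtg/CETPtg mice and none rose, which is no larger a share than the 17.7% of all genes called there. They were Foxc2 (-0.61 ± 0.19, adjusted p = 0.0292), Foxd1 (-0.41 ± 0.11, adjusted p = 0.0155) and Pdgfra (-0.19 ± 0.06, adjusted p = 0.0285, edgeR). Foxc2 and Foxd1 are forkhead transcription factors of the mesenchyme around the brain, and Pdgfra is a growth factor receptor that oligodendrocyte precursors also express. Under vehicle, where 10.4% of all genes were called, 2 of the 25, Foxd1 and Pdgfra, fell by 0.56 and 0.25 on the log2 scale. Bmp7, a secreted signal of the meninges, and Mgp, a matrix protein that inhibits calcification, the most abundant after Pdgfra, were not called.

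Relatives of the matrix genes were not called. Of 12 other small leucine-rich proteoglycans 8 were tested and none was called in any comparison. Bgn, biglycan, the closest relative of decorin, had a log2 fold change of 0.42 ± 0.12 with evacetrapib in APPtg/CETPtg mice (unadjusted p = 0.00214, adjusted p = 0.272 by edgeR). Prelp gave 0.29 ± 0.13 there, and Podn -0.10 ± 0.16. None of 11 interstitial collagens was called in any comparison, among them Col6a1, Col6a2 and Col12a1, with log2 fold changes of 0.05, -0.04 and 0.39 with evacetrapib in APPtg/CETPtg mice.

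In the pathways of Igf2 and Aldh1a2, the calls between genotypes over both treatments were 3 of 14 and 1 of 16 genes tested, against 17.7% of all genes, so neither list stands apart by its count. The IGF list held 19 genes. Over both treatments Igf1r (-0.30 ± 0.05, adjusted p = 0.000322), which binds IGF2, and Insr, the insulin receptor (-0.19 ± 0.03, adjusted p = 0.000685), fell in APPtg/CETPtg mice, while Igfbp6, a binding protein with a preference for IGF2, rose (0.25 ± 0.07, adjusted p = 0.0121, edgeR). Igfbp5, Igfbp4 and Irs2, the most abundant of the list by CPM, were not called. Of 18 genes of retinoic acid synthesis, transport and reception 16 were tested, and 1, Aldh1a1, fell over both treatments (-0.20 ± 0.05, adjusted p = 0.0134 by edgeR). The receptors Rxra, Rxrb and Rxrg were not called. With evacetrapib none of either list was called.

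Among 16 relatives of the transporters 12 were tested. Between genotypes over both treatments 2 of the 12 were called, against 17.7% of all genes. Slc22a8 was among them and fell in APPtg/CETPtg mice (-0.21 ± 0.07, adjusted p = 0.0436 by edgeR). Under vehicle 2 of the 12 were called, against 10.4% of all genes. These were Slc22a8 and Slc6a11, a GABA transporter of astrocytes, and both fell (-0.60 ± 0.16 for Slc6a11, adjusted p = 0.0240 by edgeR). Slc6a17, the most abundant of these by CPM, was not called. Slc6a20b, the paralog beside Slc6a20a, had at most 4 counts in any mouse.

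Markers of other cells that border the meninges were set beside these values. With evacetrapib in APPtg/CETPtg mice 8 of 9 genes of border macrophages were above 0, with a median of 0.37, and in CETPtg mice 3 of 9, with a median of -0.11, and none was called. All 12 markers of choroid plexus epithelium, the tissue that secretes the cerebrospinal fluid, were tested. In APPtg/CETPtg mice 1 of 12 was above 0, with a median of -1.19, and none was called. Their summed level was 205 CPM in S5, 183 in S6, 371 in S7 and 829 in S8, and 208 to 222 in the evacetrapib-treated mice. Enpp2 alone was at 161 CPM or more in every mouse, so the lower sums are mostly this gene. They say little about the other markers. Ttr ran from 0.705 to 427 CPM over all mice, with a median of 2.53. Its log2 fold change with evacetrapib in APPtg/CETPtg mice was -5.06 ± 1.75. Markers of the vessel wall had estimates of a size like that of the 10 genes in APPtg/CETPtg mice, with 8 of 8 smooth muscle, 9 of 9 pericyte and 9 of 10 endothelial genes above 0 and medians of 0.35, 0.23 and 0.26. In CETPtg mice, where the 10 genes had a median of -0.07, these medians were 0.36, 0.07 and 0.22. Of these 27 genes only Myh11 was called with evacetrapib, over both genotypes (0.56 ± 0.08, adjusted p = 0.0193 by edgeR), and no gene was called there without mouse B. The part of these cells in the values of the 10 genes was not tested.

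**Figure D3:**
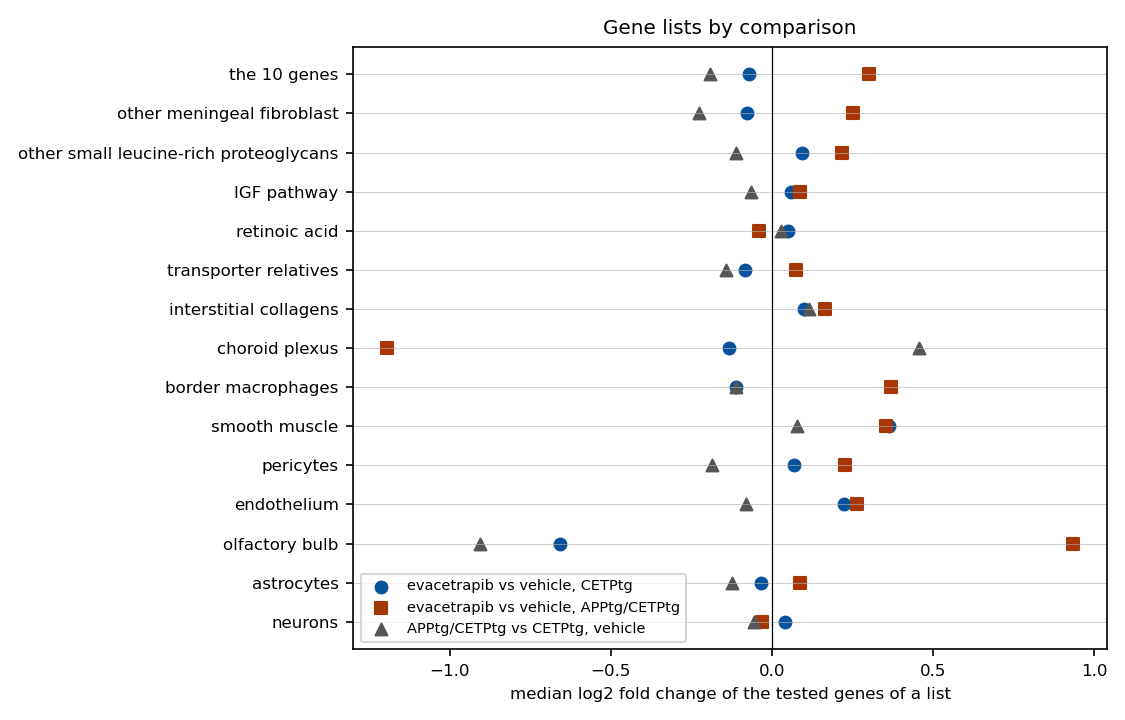
Median log2 fold change (horizontal axis) of the tested genes of 15 lists, the 10 genes among them, for evacetrapib over vehicle in each genotype and for APPtg/CETPtg over CETPtg mice on vehicle. The 10 genes (0.30, -0.07 and -0.19) and the 25 other markers of meningeal fibroblasts (0.25, -0.08 and -0.23) lie close together, and choroid plexus and olfactory bulb markers lie farthest from 0.

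To see whether the 10 genes varied together from mouse to mouse, log2 CPM values were centered on the mean of each group and correlated over the 16 mice. The median Pearson r over the 45 pairs was 0.48, with a range from -0.39 to 0.89. Of all pairs of tested genes, whose median r was -0.00, 6.44% were above 0.48. All values are from the same libraries, and the r are given as a description.

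The pairs did not form 1 block. Igf2, Slc6a20a, Fmod, Slc22a6 and Slc6a13 had r of 0.62 to 0.89 over their 10 pairs, highest for Igf2 with Slc6a20a and 0.86 for Slc6a20a with Fmod. Dcn, Lum and Aldh1a2 had r of 0.49 to 0.73 over 3 pairs. Between these sets, which were formed after the values were seen, the median r was 0.31 over 15 pairs. The neighbors Dcn and Lum had r = 0.61. Ogn had r above 0.6 with Igf2, Slc6a13, Slc6a20a and Fmod. Islr had r from -0.39 with Slc6a20a to 0.56 with Dcn, and 5 of its 9 pairs were below 0. Without Islr the median r was 0.53, and in CETPtg mice alone it was 0.59 and in APPtg/CETPtg mice alone 0.52. Mouse S6 pulled the sets apart. Its log2 CPM minus the group mean was -0.97 for Igf2 to -0.24 for Slc6a13 in the first set. It was 0.08 for Lum to 0.27 for Dcn in the second set, and 0.87 for Islr. Without S6 the median r over all pairs was 0.59, and the r of the sets were not computed without it.

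**Figure D4:**
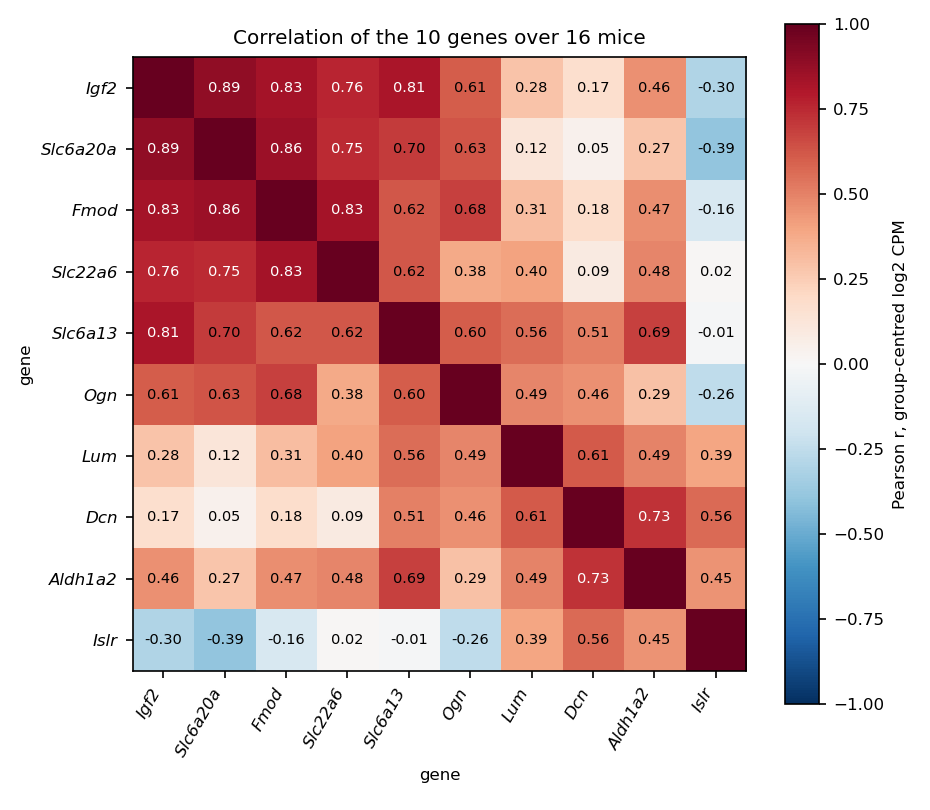
Pearson r (color and number) between the 10 genes (both axes) over 16 mice, from log2 CPM with each group's mean removed. Igf2, Slc6a20a, Fmod, Slc22a6 and Slc6a13 (r = 0.62 to 0.89) stand together, and Islr has the lowest values.

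Dcn, a common marker of fibroblasts, was tested against each of the other 9 genes by permutation of the pairings. The tests were two-sided, with 100000 resamples and Benjamini-Hochberg adjustment over 9 relations. The values had each group's mean removed before they were paired. The permutation p do not allow for these removed means and tend to be too small, here and below. Aldh1a2 passed, with r = 0.73 (permutation p = 0.0011, adjusted p = 0.0099) and rho = 0.77 (permutation p = 0.00086, adjusted p = 0.00774). Within genotypes the r values were 0.63 (CETPtg) and 0.86 (APPtg/CETPtg). Without S4 and S5, the mice farthest from the median of Dcn, r was 0.47 and no relation passed among the remaining 14 mice. The relation with Aldh1a2 thus passed only with those 2 mice included. For Lum r was 0.61 (permutation p = 0.0117, adjusted p = 0.0529) and rho 0.71 (permutation p = 0.00264, adjusted p = 0.0119). With Slc6a20a Dcn had r = 0.05 (permutation p = 0.872) over all mice, 0.71 in CETPtg mice and -0.26 in APPtg/CETPtg mice. In S6, an APPtg/CETPtg mouse kept in these values, Dcn was 0.27 and Slc6a20a -0.75 from the group mean on the log2 scale. The part of this mouse in the difference between genotypes was not tested. The number of genes related to Dcn without S6 is given below.

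To set the genes beside markers of neighboring cells, each gene was compared with the mean z-score of 3 lists (other meningeal fibroblast, choroid plexus and olfactory bulb markers), in 30 relations chosen after their values were seen, tested by permutation as above. Igf2 followed the choroid plexus markers, with r = 0.86 (permutation p = 2e-05, adjusted p = 0.0003) and rho = 0.88 (permutation p = 2e-05, adjusted p = 0.0006). Within genotypes r was 0.82 and 0.90, and it was 0.82 without S3 and S8, the mice farthest from the median of those markers. Igf2 is itself made by choroid plexus epithelium, and the part of that tissue in its values was not tested. Fmod (r = 0.68), Slc6a20a (r = 0.67), Slc6a13 (r = 0.62) and Slc22a6 (r = 0.62) also passed with these markers, with adjusted permutation p of 0.0137, 0.0137, 0.0245 and 0.0245. Within CETPtg and APPtg/CETPtg mice r was 0.71 and 0.68 for Fmod and 0.77 and 0.61 for Slc22a6. It was 0.47 and 0.78 for Slc6a20a and 0.31 and 0.87 for Slc6a13. By rho, Slc6a20a and Slc6a13 did not pass (adjusted permutation p = 0.087 and 0.0913). Because the permutation p do not allow for the removed group means, the passes of Slc6a13 and Slc22a6 by r are uncertain. Islr followed the olfactory bulb markers, with r = 0.91 (permutation p = 1e-05, the smallest that the resamples can give, adjusted p = 0.0003) and rho = 0.89 (permutation p = 4e-05, adjusted p = 0.0006). Within genotypes r was 0.90 and 0.92, and without S5 and S6 it was 0.84.

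Of the lists, the other markers of meningeal fibroblasts were closest to the 10 genes. Their mean z-score and that of the 10 genes had r = 0.88 over the 16 mice, against 0.67 for choroid plexus and 0.66 for border macrophages. Transporter relatives had 0.64, other small leucine-rich proteoglycans 0.63 and ependyma 0.49. For the olfactory bulb r was 0.20, for interstitial collagens -0.06 and for neurons, the lowest, -0.47. The lists held from 1 to 25 tested genes, and this difference in length was not allowed for. By gene, Lum (r = 0.77), Fmod (r = 0.73) and Slc22a6 (r = 0.72) were closest to the 25 markers, and Islr (r = 0.22, permutation p = 0.412) was farthest. Aldh1a2 and Dcn, with r of 0.51 and 0.52, did not pass after adjustment.

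**Figure D5:**
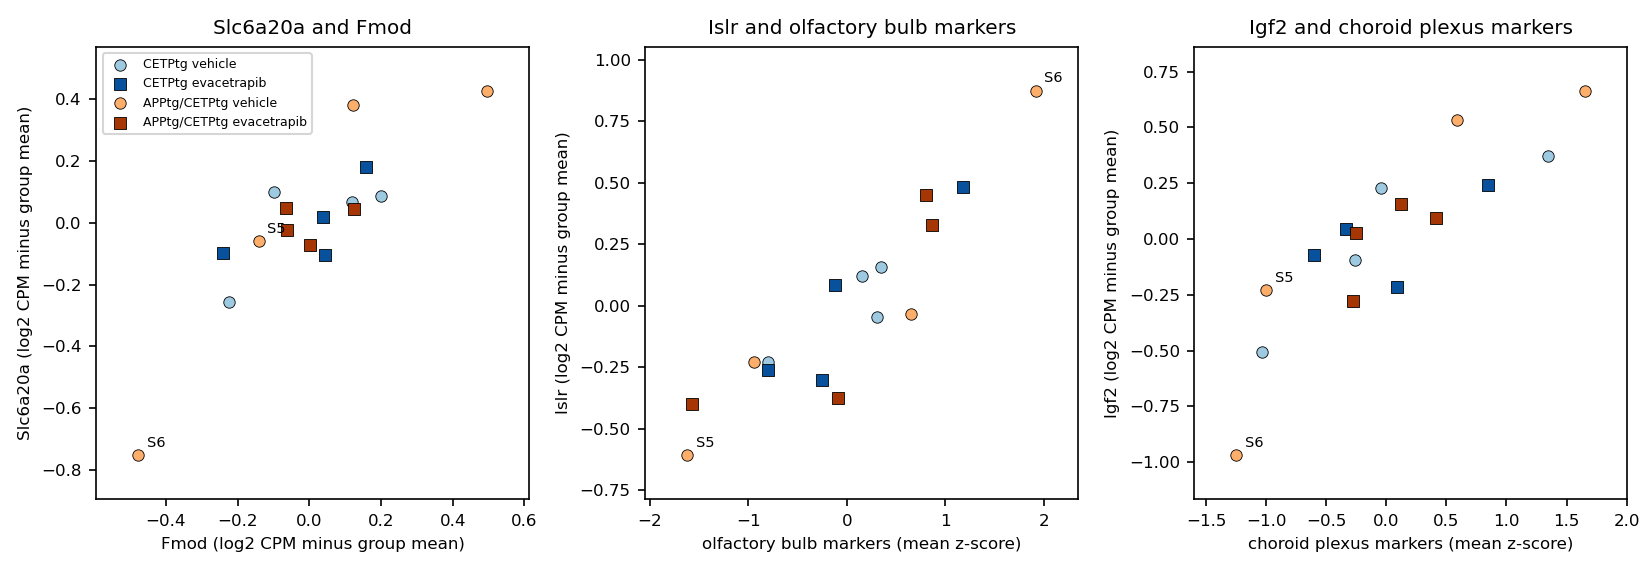
Slc6a20a against Fmod (left), Islr against the mean z-score of olfactory bulb markers (middle) and Igf2 against that of choroid plexus markers (right), as log2 CPM with each group's mean removed. Points are the 16 mice by group; S6 is lowest for Slc6a20a and Igf2 and highest for Islr.

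The 10 genes outside the list with the highest r to the mean z-score of the members were Ldha-ps2, mt-Nd3, Sp5, Gjb2, Pgrmc1, Serping1, Pifo, Tent5a, Aebp1 and Asb4, with r from 0.84 to 0.89 over 16 mice. Gjb2, a gap junction protein of the arachnoid and pia (r = 0.87, mean 7.59 CPM), is 1 of the 25 other fibroblast markers. Of the 10, it alone is in a list used here. Serping1 is an inhibitor of complement (r = 0.85) and Aebp1 a matrix protein that binds collagen (r = 0.84). Ranked beside them were mt-Nd3 (r = 0.88) and Pgrmc1 (r = 0.85, mean 228 CPM). Which cells these transcripts came from was not tested. Ldha-ps2 is a pseudogene that can share reads with Ldha, so its value of 0.394 CPM is uncertain.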

How the data were processed

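Bulk brain RNA of 16 mice was analysed, 4 in each group. Per the study's methods and the submitters' processing notes, poly(A) libraries that keep strand were trimmed with Trimmomatic 0.39 and aligned to mm10 with STAR 2.7.8a, duplicates were marked with Picard 2.0.1, and HTSeq counted reads per gene. The deposited table holds 1 raw count for each gene and mouse, without normalization, and the annotation used for counting was not given in the sources used here. Groups were taken from the genotype and treatment labels, and 0 value columns were unmapped. The members and lists were chosen with earlier results of these data known. The named genes were the 10 members, the most abundant and the called genes of each list, the 10 genes most like the members, the chromosomal neighbors and Thy1. A result that this rule would name is not reported here.

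The filter, a minimum of 10 counts reached by 4 mice or more, left 18609 genes. After TMM normalization these went through edgeR 4.0.16 (R 4.3.3) and its quasi-likelihood test, two-sided, with Benjamini-Hochberg adjustment over all of them. A gene was called where the adjusted p did not exceed 0.05 and expression differed by 5% or more. The comparisons within a group pair and the difference of effects came from 1 model with a mean per group, and those over both genotypes or treatments from a model with both terms. CPM used TMM library sizes, log2 CPM a prior count of 2, and lengths the exon union of GENCODE M21. DESeq2 1.42.0, limma-voom (limma 3.58.1), other normalizations, filters and thresholds and leaving out each mouse were alternatives. The steps were tested on simulated counts. The study describes its control genotypes as littermates, but the labels give no litter, so litter was not in the models. The p-values treat the mice as independent and measure the spread between these mice. Replicates within a group differed by more than sampling noise.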

Additional observations from a re-analysis of the deposited data

Results flagged for a closer look

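In 3 of 40 groups of 4 mice, 1 mouse stood apart from the other 3 by more than the critical gap of Dixon's test, where chance gives about 1 in 20 groups. Slc6a13 was at 13.3 CPM in mouse G, against 11.5 to 11.7 in the other APPtg/CETPtg mice on evacetrapib, and at 7.78 CPM in mouse C, against 9.98 to 10.4 in the other CETPtg mice on evacetrapib. Slc6a20a was at 13.4 CPM in mouse S4, against 16.8 to 17.2 in the other CETPtg mice on vehicle. Without G or C in turn, Slc6a13 was still not called in any comparison.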

How the results depend on the processing

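The count of 0 called members in each of the 7 comparisons did not move with DESeq2's size factors, library totals, the DESeq2 Wald test, limma-voom, either other filter on low counts, an adjusted p of at most 0.1, no minimum fold change, fits without the other term or to the 8 mice of a comparison. Leaving out each mouse gave 0 to 1 called members under vehicle between genotypes (Slc22a6 without S7) and 0 in the other comparisons. Uncalled log2 fold changes of members changed sign in 6 of 550 values under other settings, reaching at most 0.03 in size, and in 72 of 800 when 1 mouse was left out, reaching at most 0.12. Without S5 and S6, an alternative added after seeing the data, 11 of 70 changed sign. Calls over all genes moved more. With no filter on low counts edgeR called 35 against 2 over both genotypes, 88 against 8 in APPtg/CETPtg mice, 9 against 0 in CETPtg mice and 29 against 0 for the difference. DESeq2 called 57 and 73 in the first and second of these, and 1135 against 556 between genotypes under evacetrapib. Fits to the 8 mice of a comparison called 327 against 556 there and 2 against 8 in APPtg/CETPtg mice, and the fit over both genotypes without the genotype term called 1 against 2. Without S5 and S6 edgeR called 0 in APPtg/CETPtg mice, 0 over both genotypes and 717 against 1934 between genotypes under vehicle. When 1 mouse was left out, the calls between genotypes ranged from 909 (without S3) to 1998 under vehicle and from 91 (without A) to 858 under evacetrapib, and those with evacetrapib from 0 (without G) to 14 in APPtg/CETPtg mice and from 0 (without B, for example) to 8 (without S8) over both genotypes.

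The median r of the members kept within its jackknife error of 0.118 under every alternative, with 0.45 to 0.59 when 1 mouse was left out. The number of genes related to Dcn was 1, and it was 3 by Spearman's rho, 0 without S4 and S5, 0 in APPtg/CETPtg mice alone, and 0 to 7 when 1 mouse was left out (0 without S5, 7 without S6). The cause was not tested. The header of the count table numbers the mice 1 to 4 in each group, but same-numbered mice did not deviate together (median r of -0.01, 1 of 24 pairs above 0.1). A replicate block by this number called 0 members in each comparison and, over all genes, 5 against 8 in APPtg/CETPtg mice. For the difference between the genotypes' effects it left 0 members against 1 at an unadjusted p below 0.05. With 4 mice per group, intervals on the members' log2 fold changes within a genotype reached from -0.79 to 0.96.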

Other observations

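In the comparison of genotypes under evacetrapib, Cd163, a scavenger receptor of border macrophages, rose in APPtg/CETPtg mice by a log2 fold change of 0.72 ± 0.15 (adjusted p = 0.0175, edgeR quasi-likelihood test), and all 9 genes of its list had estimates above 0, against 52.3% of all genes. Under vehicle 4 of the 9 were above 0, with a median of -0.11, and Cd163 was not called (0.44, adjusted p = 0.0681). Over both treatments it rose by 0.58 ± 0.11 (adjusted p = 0.00129). None of the 10 fibroblast genes was called beside it.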
